A study of Mus musculus with 6 samples.

Results

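Lysosomal cathepsins are the proteases that break down proteins delivered to the lysosome by endocytosis, phagocytosis and autophagy. The 9 genes described here (Ctsa, Ctsb, Ctsc, Ctsd, Ctsf, Ctsh, Ctso, Ctss and Ctsz) were taken by gene name from a table of 35148 genes of the mouse paraventricular nucleus of the hypothalamus (PVH), and each name matched 1 row. All 6 libraries came from Ruvbl2fl/fl mice, which carry floxed Ruvbl2 in both groups. AAV2-GFP was injected into the PVH for 3 libraries and AAV2-Cre-GFP for the other 3, and RNA was taken 8 weeks after infection. The series text frames the comparison as a question about RUVBL2, an ATPase of chromatin and chaperone complexes, and synaptic plasticity. The sources used here do not name the promoter that drives Cre or GFP, the age of the mice, or whether a library is 1 mouse, so p-values measure only the spread between these libraries, which may be technical.

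Cathepsins are made as inactive precursors, tagged with mannose 6-phosphate in the Golgi, carried to the lysosome by sorting receptors and activated there at acid pH. They fall into 3 catalytic classes: the cysteine proteases of the papain family (Ctsb, Ctsc, Ctsf, Ctsh, Ctso, Ctss and Ctsz), the aspartic protease Ctsd and the serine carboxypeptidase Ctsa. In brain, cathepsin D and cathepsin B are made by neurons and glia alike, whereas cathepsin S is known mainly from microglia and other antigen-presenting cells, where it cleaves the invariant chain of MHC class II. In the table's own KEGG annotation all 9 genes belong to the lysosome term and 8 to the apoptosis term, while Ctsb and Ctss also belong to antigen processing and presentation.

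Total counts ran from 41890769 to 54702785 per library. Ruvbl2 stood at 8.66 ± 1.27 FPKM (fragments per unit of gene length and sequencing depth; SD, n = 3) with AAV2-GFP and 9.38 ± 0.240 FPKM with AAV2-Cre-GFP, so Cre did not come with a lower level of its target (log2 difference 0.08 ± 0.111 SE; edgeR quasi-likelihood adjusted p = 0.773). The groups are therefore called GFP-labelled and Cre-labelled. Markers of PVH neurons, among them Oxt, Avp, Sim1 and Otp, were detected in all 6 libraries and summed to between 219 and 752 CPM (counts scaled to a common library size with TMM factors). Transcripts of other organs set 3 libraries apart: Cre-labelled libraries 2 and 3 held kidney transcripts (551 and 606 CPM over 12 genes, at most 70.8 CPM in any other library), Cre-labelled library 3 also muscle transcripts (235 CPM over 10 genes), and GFP-labelled library 1 testis transcripts (537 CPM over 10 genes, at most 22.3 CPM in any other).

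The 9 genes spanned mean levels from 1.31 to 149.6 FPKM, and their order was nearly the same in every library. Ctsd, the main aspartic endopeptidase of the lysosome, was the highest, at 125, 157 and 140 FPKM in GFP-labelled libraries 1 to 3 and at 154, 158 and 163 FPKM in the Cre-labelled ones. Ctsb, a cysteine protease that acts as an endopeptidase and as a carboxydipeptidase, followed at 67.0, 74.5 and 74.6 FPKM and at 79.6, 76.9 and 76.0 FPKM. Together these genes made up between 67.2% and 71.4% of the summed FPKM of the 9 genes in each library, and with Ctss between 80.9% and 82.8%. Below them came Ctss, then Ctsz and Ctsa, Ctsf, Ctso, Ctsh and, lowest, Ctsc. Each gene stood above the next one in all 6 libraries, with ranges that did not overlap, except for 1 pair: Ctsz was above Ctsa in 1 of 3 GFP-labelled and in 3 of 3 Cre-labelled libraries. Even the lowest member was well covered, since Ctsc had 313 to 533 counts per library.

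**Figure D1:**
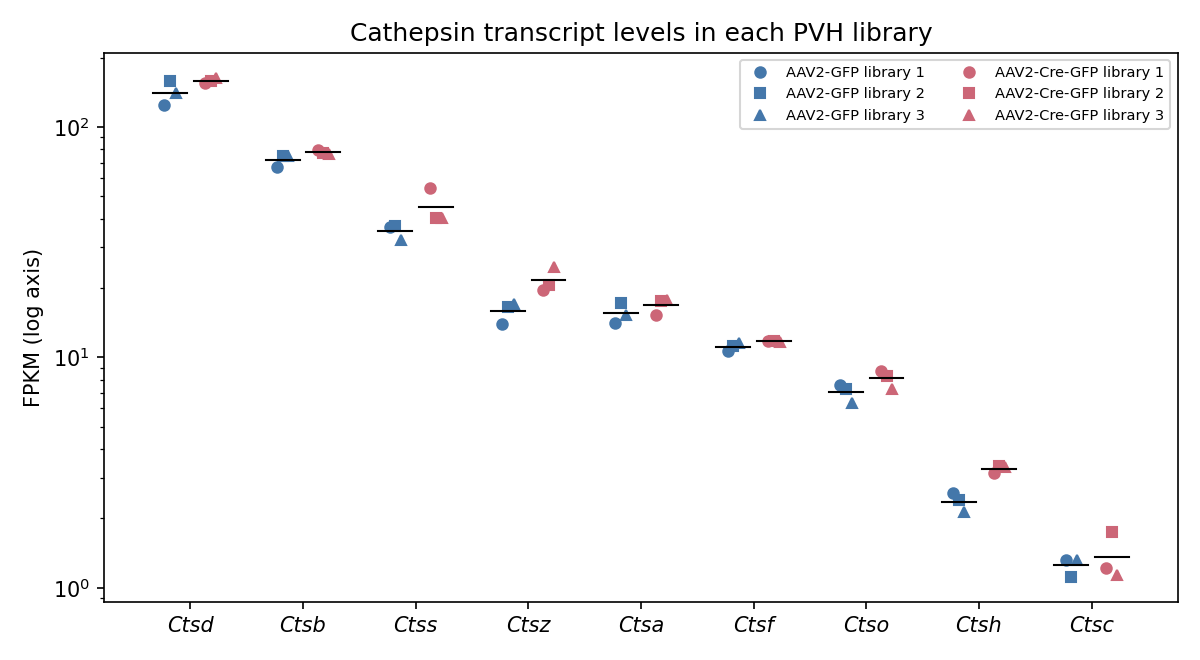
Level of each cathepsin gene in the 6 PVH libraries, in FPKM on a log axis; points are libraries and black bars are group means of 3 libraries. Ctsd and Ctsb lie above all other members, and the points of both groups lie close together beside the distance between genes.

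All 9 genes had a mean slightly higher in the Cre-labelled libraries, and none passed the test. The median log2 difference of the 9 was 0.13, with a range from 0.03 to 0.44, against a median of -0.0058 over the 20865 genes tested, of which 49% had a difference above 0. At an edgeR adjusted p under 0.05, 0 of the 9 were called, where 0.00959% of all tested genes were called in either direction, all of them lower. At an unadjusted p under 0.05, 3 of the 9 were higher (Ctsh, Ctsz and Ctss) and 0 lower, where 8.11% of all tested genes were higher and 9.11% lower. DESeq2, another test of the same counts, called 2 of the 9 as higher (Ctsh and Ctsz). It called 8.03% of the 16455 genes that it gave an adjusted p, 3.12% as higher and 4.91% as lower. With the replicate number as a block, edgeR called 0 of the 9 and 0.0144% of all genes, all of them lower (0.0144%). Without Cre-labelled library 1 it called 0 of the 9, where 1.36% of all genes were called, 1.12% as higher and 0.234% as lower. In TMM-normalised CPM, every Cre-labelled library was above every GFP-labelled one for the same 3 genes, where this held for 11.1% of all tested genes and the reverse for 11.7%. In FPKM it held for 5 of 9, Ctsb and Ctsf being the others, and for 14.1% of all tested genes, and the reverse for 8.8%. Without the 3 libraries with other-organ transcripts, which leaves 2 GFP-labelled libraries against 1 Cre-labelled library, 5 genes were higher and 4 lower and the median was 0.040; without Cre-labelled libraries 2 and 3 alone, 7 were higher and 2 lower.

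**Figure D2:**
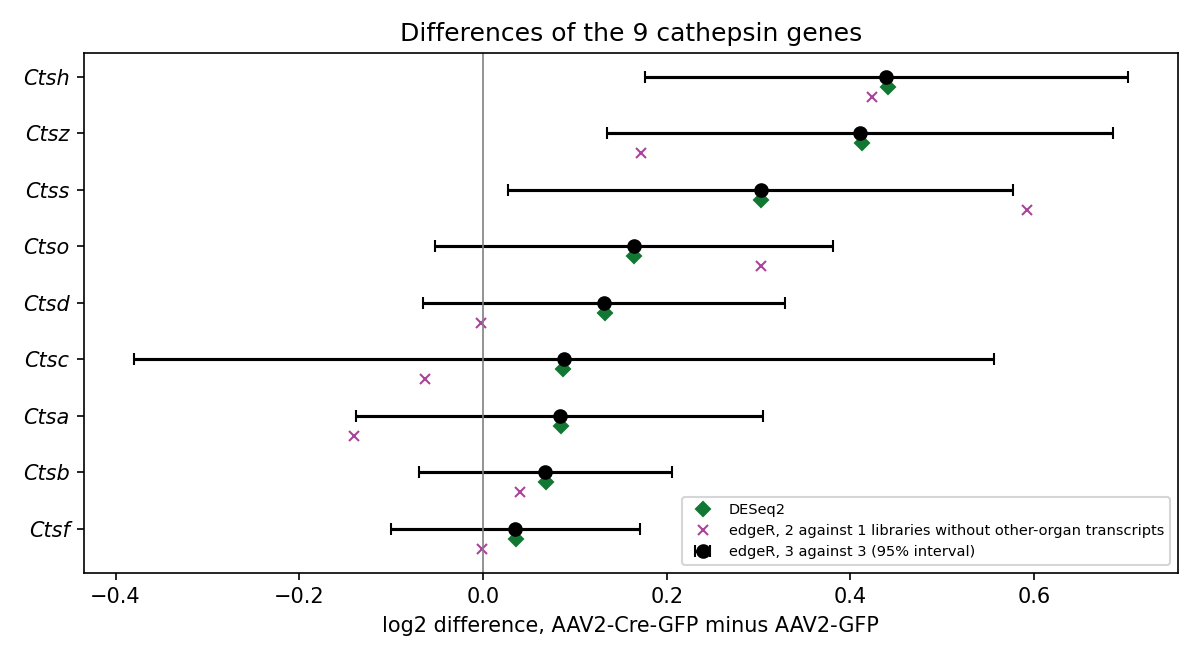
Log2 difference of each cathepsin gene, Cre-labelled minus GFP-labelled, from edgeR with its 95% interval (3 against 3 libraries), from DESeq2, and from edgeR with 2 against 1 libraries. Ctsh, Ctsz and Ctss have intervals above 0 that run from 0.18 to 0.70, 0.14 to 0.69 and 0.03 to 0.58, while without the other-organ libraries Ctss moves to 0.59 and Ctsz to 0.17.

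Ctsh encodes cathepsin H, a cysteine protease that acts chiefly as an aminopeptidase. Its level was 2.57, 2.40 and 2.13 FPKM in GFP-labelled libraries 1 to 3 and 3.15, 3.37 and 3.35 FPKM in Cre-labelled libraries 1 to 3. All Cre-labelled libraries were higher, and the difference between groups was larger than the spread inside either group (2.37 ± 0.225 against 3.29 ± 0.123 FPKM, SD, n = 3). The log2 difference was 0.44 ± 0.114 (SE), a 1.36-fold ratio, with an edgeR adjusted p of 0.131 and a DESeq2 adjusted p of 0.0380. It kept its sign with each library left out, between 0.37 and 0.50, and was 0.42 in the 2 against 1 libraries without other-organ transcripts. The gene spans bases 90054152 to 90076089 of chromosome 9 (GRCm38, plus strand), and no other gene of the table overlaps it.

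Ctsz encodes cathepsin Z, also called cathepsin X, a carboxypeptidase of the papain family. It stood at 14.0, 16.5 and 17.1 FPKM in GFP-labelled libraries 1 to 3 and at 19.7, 20.6 and 24.7 FPKM in Cre-labelled libraries 1 to 3. Again the groups did not overlap, and the highest value was in Cre-labelled library 3. The log2 difference was 0.41 ± 0.119 (SE), a 1.33-fold ratio, with an edgeR adjusted p of 0.157 and a DESeq2 adjusted p of 0.0383. Its size depended on the libraries with other-organ transcripts: it was 0.27 without Cre-labelled libraries 2 and 3 and 0.17 when GFP-labelled library 1 was left out as well. Ctsz spans bases 174427493 to 174439039 of chromosome 2 (minus strand), and Nelfcd on the other strand overlaps its last 10 bases.

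Ctss encodes cathepsin S, an endopeptidase that stays active at neutral pH. Its level was 36.6, 37.2 and 32.4 FPKM in GFP-labelled libraries 1 to 3 and 54.4, 40.2 and 40.0 FPKM in Cre-labelled libraries 1 to 3. The groups did not overlap, but only Cre-labelled library 1 stood far above the GFP-labelled range, and in CPM the gap between the nearest libraries was 59.0 to 62.3. The log2 difference was 0.30 ± 0.119 (SE), a 1.23-fold ratio (edgeR adjusted p = 0.255; DESeq2 adjusted p = 0.115). Without Cre-labelled library 1 it was 0.16, and without the 3 libraries with other-organ transcripts, where that library is the only Cre-labelled one, it was 0.59 and passed edgeR (adjusted p = 0.00411, with the lone library assumed to vary like the others). In that fit 1 of the 9 genes was called as higher, where 4.81% of all tested genes were called, 1.24% as higher and 3.57% as lower. Over all 18 alternatives the adjusted p of Ctss ran from 0.00411 to 0.479. Ctss spans bases 95526786 to 95556403 of chromosome 3 (plus strand). The pseudogene Hmgb1-ps5 lies within it on the same strand and had between 3 and 7 counts per library.

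The Cre-labelled libraries thus did not rank alike for these genes: Cre-labelled library 1 was the highest of the 3 for Ctss and the lowest for Ctsz and Ctsh. The ribosomal RNA model CT010467 lay between 2120 and 2246 CPM with GFP and stood at 17144, 13457 and 7202 CPM with Cre, in library order. Of these 3 libraries, it was highest where Ctss was highest and lowest where Ctsz was highest. Ctsh, at 16.0, 17.7 and 17.3 CPM with Cre, followed its order in neither direction. CT010467 is 1 of 6 listed indicators of RNA kind and ribosomal RNA, all on the higher side. Their sum, CT010467 included, was 5974 to 6473 CPM with GFP and 23673, 18889 and 11437 CPM with Cre. The part of these transcripts in the cathepsin differences was not tested.

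**Figure D3:**
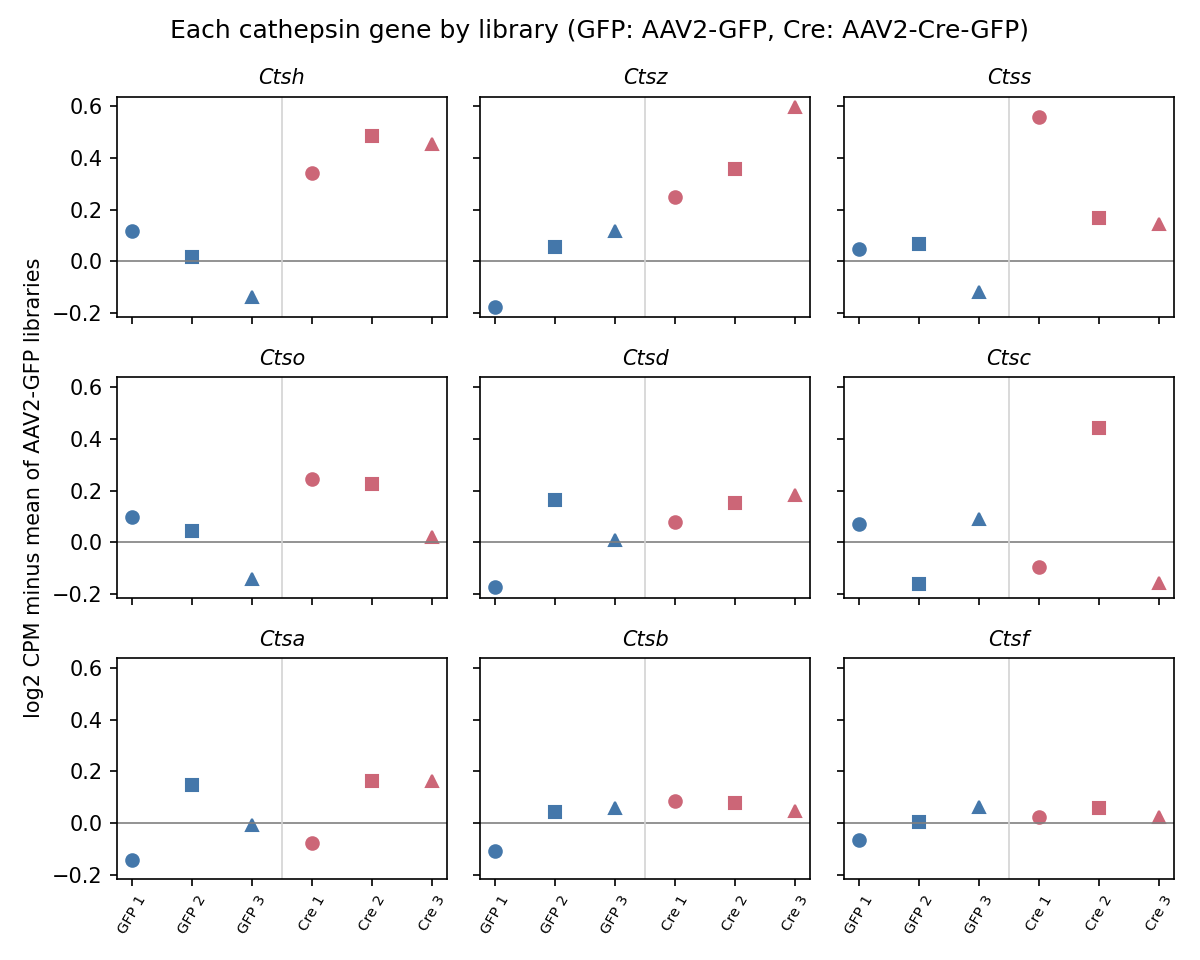
Each cathepsin gene by library, as log2 CPM minus the mean of the 3 GFP-labelled libraries; circles, squares and triangles are libraries 1, 2 and 3. Ctss is highest in Cre-labelled library 1, Ctsz in Cre-labelled library 3, and Ctsb and Ctsf vary by little in any library.

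The remaining members overlapped between groups in CPM. Ctsd differed by 0.13 ± 0.0851 (SE) in log2, with a 95% interval from -0.07 to 0.33 (edgeR adjusted p = 0.477). Cre-labelled libraries 1 and 2, at 408 and 430 CPM, were below GFP-labelled library 2, at 433 CPM. The log2 difference of Ctsd was -0.0018 without the libraries with other-organ transcripts. Ctsb differed by 0.07 ± 0.0595, with an interval from -0.07 to 0.21 (edgeR adjusted p = 0.607). Its groups did not overlap in FPKM but did in CPM, where GFP-labelled library 3 was at 533 and Cre-labelled library 3 at 527.

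Ctso, a papain-family member with few known substrates, stood at 7.55, 7.28 and 6.33 FPKM and at 8.71, 8.33 and 7.31 FPKM (log2 difference 0.16 ± 0.0936 SE; edgeR adjusted p = 0.419). GFP-labelled library 3 and Cre-labelled library 3 were the lowest of their groups. Ctsf, a cysteine protease that can also process the invariant chain in macrophages, was the most even member: it stood at 10.7, 11.2 and 11.6 FPKM and at 11.8, 11.7 and 11.6 FPKM (log2 difference 0.03 ± 0.0585 SE; edgeR adjusted p = 0.810). Its 95% interval ran from -0.10 to 0.17.

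Ctsa, the protective protein that holds beta-galactosidase and neuraminidase in a stable complex, stood at 14.0, 17.2 and 15.3 FPKM and at 15.3, 17.5 and 17.8 FPKM (log2 difference 0.08 ± 0.0957 SE; edgeR adjusted p = 0.709). GFP-labelled library 1 was its lowest, and without it and Cre-labelled libraries 2 and 3 the difference was -0.14. Ctsc, the dipeptidyl peptidase that activates the granule proteases of leukocytes, stood at 1.32, 1.11 and 1.33 FPKM and at 1.21, 1.75 and 1.14 FPKM (log2 difference 0.09 ± 0.202 SE; edgeR adjusted p = 0.869). Only Cre-labelled library 2 was above the GFP-labelled range, and without that library the difference was -0.12.

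The reads of most members can be assigned to a single gene. The 31-base words of the transcripts of Ctsf, Ctss and Ctsz occur in no other GENCODE M21 gene, and for Ctsc, Ctsh and Ctso at most 1.71% of words do. No word is shared between members. For Ctsa 14.6% of words, and for Ctsb 782 of 6012 words, recur elsewhere, mostly in genes on the other strand that overlap their ends: Pltp and Neurl2 for Ctsa, Fdft1 for Ctsb. The sources used here do not say whether counting used strand, so reads in those stretches could be counted for either gene. For Ctsd 33.2% of words recur in Gm49369, which is not analysed here. Ctsd spans bases 142375911 to 142388038 of chromosome 7 (minus strand), Ctsb 63122462 to 63145923 of chromosome 14 (plus strand) and Ctsa 164832873 to 164840019 of chromosome 2 (plus strand). The others, all on the plus strand, are Ctsc at 88278085 to 88310888 of chromosome 7, Ctsf at 4855130 to 4860918 of chromosome 19 and Ctso at 81932601 to 81956725 of chromosome 3.

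Promoter windows from RefSeq (GRCm38.p6, 250 bases before to 50 after the start site) matched 7 of the 9 members, all but Ctsb and Ctsh. The windows of Ctss and Ctsz are shown because their groups did not overlap, and those of Ctsd and Ctsa because they hold the longer palindrome described next. Capitals mark CACGTG, TCACGTGA (the core of the element bound by the lysosomal regulator TFEB, which contains CACGTG), GAGGAAGT (a motif of the myeloid factor PU.1) and GAAA repeated after any 2 bases (the repeat bound by interferon regulatory factors), searched on both strands. The windows lie at chr3:95526536-95526835 on the plus strand, chr2:174438990-174439289 on the minus strand, chr7:142387778-142388077 on the minus strand and, for the downstream of 2 start sites of Ctsa, chr2:164833523-164833822 on the plus strand, each printed 5′ to 3′ along its gene.
Ctss: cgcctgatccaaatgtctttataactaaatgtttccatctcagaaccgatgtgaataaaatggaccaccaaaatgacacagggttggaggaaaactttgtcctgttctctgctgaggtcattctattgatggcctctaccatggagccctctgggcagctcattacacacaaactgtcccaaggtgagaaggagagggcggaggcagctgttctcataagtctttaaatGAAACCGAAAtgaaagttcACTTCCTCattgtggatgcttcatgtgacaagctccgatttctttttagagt
Ctsz: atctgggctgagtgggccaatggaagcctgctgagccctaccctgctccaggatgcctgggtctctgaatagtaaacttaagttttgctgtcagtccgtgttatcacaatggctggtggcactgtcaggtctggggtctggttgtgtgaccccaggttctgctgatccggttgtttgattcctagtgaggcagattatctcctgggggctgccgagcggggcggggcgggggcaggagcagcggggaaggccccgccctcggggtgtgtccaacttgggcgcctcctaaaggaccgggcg
Ctsd: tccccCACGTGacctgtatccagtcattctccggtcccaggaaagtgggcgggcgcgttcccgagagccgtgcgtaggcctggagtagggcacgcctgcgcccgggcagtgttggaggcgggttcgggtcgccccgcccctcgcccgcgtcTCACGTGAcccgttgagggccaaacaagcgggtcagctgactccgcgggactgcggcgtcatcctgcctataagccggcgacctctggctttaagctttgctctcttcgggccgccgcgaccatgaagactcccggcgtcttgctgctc
Ctsa: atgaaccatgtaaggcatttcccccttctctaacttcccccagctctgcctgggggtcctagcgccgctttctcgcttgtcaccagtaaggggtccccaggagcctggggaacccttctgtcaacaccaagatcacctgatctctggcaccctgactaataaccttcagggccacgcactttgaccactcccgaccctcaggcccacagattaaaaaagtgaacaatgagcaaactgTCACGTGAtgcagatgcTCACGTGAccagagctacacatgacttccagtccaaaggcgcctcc

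Of the 2 Ctsa windows, the printed downstream one held TCACGTGA 2 times, around its start site, and the upstream one, chr2:164832622-164832921, at the start of the gene as given above, held none of the 4 motifs. The Ctsd window held TCACGTGA 1 time, where 0.974% of the 32851 windows of this length held it. CACGTG was in that Ctsa window and in those of Ctsd and Ctsf, and in 7.15% of all windows. The Ctss window held the GAAA repeat 21 bases before the start site and GAGGAAGT, on the other strand, beginning 2 bases before it; 3.44% and 3.20% of all windows held these. The GAAA repeat was also in the Ctso window, 2 times, and GAGGAAGT in that of Ctsc, while the Ctsz window held none of the 4. GC content was 44.0% for Ctss and 45.3% for Ctso, against 61.0% for Ctsz and 67.3% for Ctsd, with a median of 52.7% over all windows. A match here is a description of the sequence only.

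Protease inhibitors, cathepsin inhibitors among them, were higher in 6 of 9 tested genes, with a median log2 difference of 0.23 and none past edgeR's threshold. DESeq2 called 1 as higher, where it called 3.12% of the genes that it gave an adjusted p as higher. Cst3, which encodes cystatin C, the main secreted inhibitor of cysteine cathepsins in brain, had 588, 688 and 730 CPM with GFP and 845, 833 and 847 CPM with Cre. The groups did not overlap, and the log2 difference of 0.33 ± 0.081 (SE; edgeR adjusted p = 0.119; DESeq2 adjusted p = 0.000591) lay in the range of Ctss and Ctsz. Spint1, an inhibitor of trypsin-like serine proteases, differed by 0.96 ± 0.381 (SE; edgeR adjusted p = 0.259). A further 5 cathepsin genes outside the 9 were all on the higher side with overlapping groups and edgeR adjusted p of 0.485 or more. The smallest p in that list belonged to Ctsg, a neutrophil serine protease, and Ctse, an aspartic protease. Ctsg stood at 0.509, 0.776 and 0.414 CPM against 0.325, 1.53 and 1.32 CPM, and Ctse at 1.11, 0.825 and 0.352 CPM against 0.580, 1.26 and 1.82 CPM.

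Genes that activate or stabilise lysosomal hydrolases, and those that deliver them, went both ways. Of 8 maturation and partner genes 5 were higher and 3 lower (median 0.13); edgeR called none, and DESeq2 called 1 as higher and 1 as lower. Tpp1, a lysosomal tripeptidyl peptidase, had a log2 difference of 0.30 ± 0.093 (SE; edgeR adjusted p = 0.176; DESeq2 0.0325), and Psap, the precursor of the saposins, one of -0.13 ± 0.051 (SE; edgeR adjusted p = 0.256; DESeq2 0.0343). Among 12 delivery genes 6 were higher and 6 lower (median 0.010). Here edgeR called none, and DESeq2 called 2 as higher and 2 as lower. Of all genes with a DESeq2 adjusted p, 3.12% were called as higher and 4.91% as lower. Gnptg, a subunit of the enzyme that adds the mannose 6-phosphate tag, differed by 0.28 ± 0.066, and Sorl1, a sorting receptor strongly expressed in neurons, by -0.21 ± 0.050 (SE; edgeR adjusted p = 0.111 and 0.117; DESeq2 0.0108 and 0.00311). In both genes the groups did not overlap.

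The other lysosomal lists differed in direction. edgeR called none of their genes, while DESeq2 called 1 membrane protein gene as higher and, as lower, 2 proton pump, 2 hydrolase and 2 autophagy genes. Of all genes with a DESeq2 adjusted p, 3.12% were called as higher and 4.91% as lower. Lysosomal membrane proteins were higher in 12 of 15 (median 0.16), led by Cd63, a tetraspanin, and Slc17a5, the sialic acid exporter, with log2 differences of 0.37 ± 0.093 and 0.37 ± 0.098 (SE; edgeR adjusted p = 0.125 and 0.139; DESeq2 0.00650 and 0.0532). Proton pump subunits were lower in 11 of 17 (median -0.033). Atp6v0a1, a membrane-domain subunit abundant in neurons, stood at 683, 649 and 647 CPM against 452, 526 and 523 CPM (log2 difference -0.40 ± 0.070 SE; edgeR adjusted p = 0.0757; DESeq2 2.11e-06), and Atp6v1g2 differed by -0.21 ± 0.072 (edgeR adjusted p = 0.202; DESeq2 0.0441). Lysosomal hydrolases other than cathepsins were lower in 14 of 26 (median -0.028), with Hexa, a beta-hexosaminidase subunit, at 0.20 ± 0.062 (SE; edgeR adjusted p = 0.167; DESeq2 0.0925). Autophagy genes were lower in 8 of 13 (median -0.069); Map1lc3a and Gabarapl1, which coat autophagosomes, differed by -0.38 ± 0.070 and -0.31 ± 0.071 (SE; edgeR adjusted p = 0.0793 and 0.111; DESeq2 0.000415 and 0.000652). Of 10 regulators of lysosomal genes 5 were higher and 5 lower (median -0.021), and those with the smallest p were Zkscan3, a repressor, at 0.27 ± 0.096 and Fnip1, a folliculin partner, at -0.29 ± 0.106 (SE; edgeR adjusted p = 0.219 and 0.226; DESeq2 0.120 and 0.148). Over the whole lysosome term of the table, which includes the 9 cathepsins, 74 of 119 tested genes were higher with a median of 0.059. In this term DESeq2 called 8 higher and 7 lower, and edgeR called 0.

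**Figure D4:**
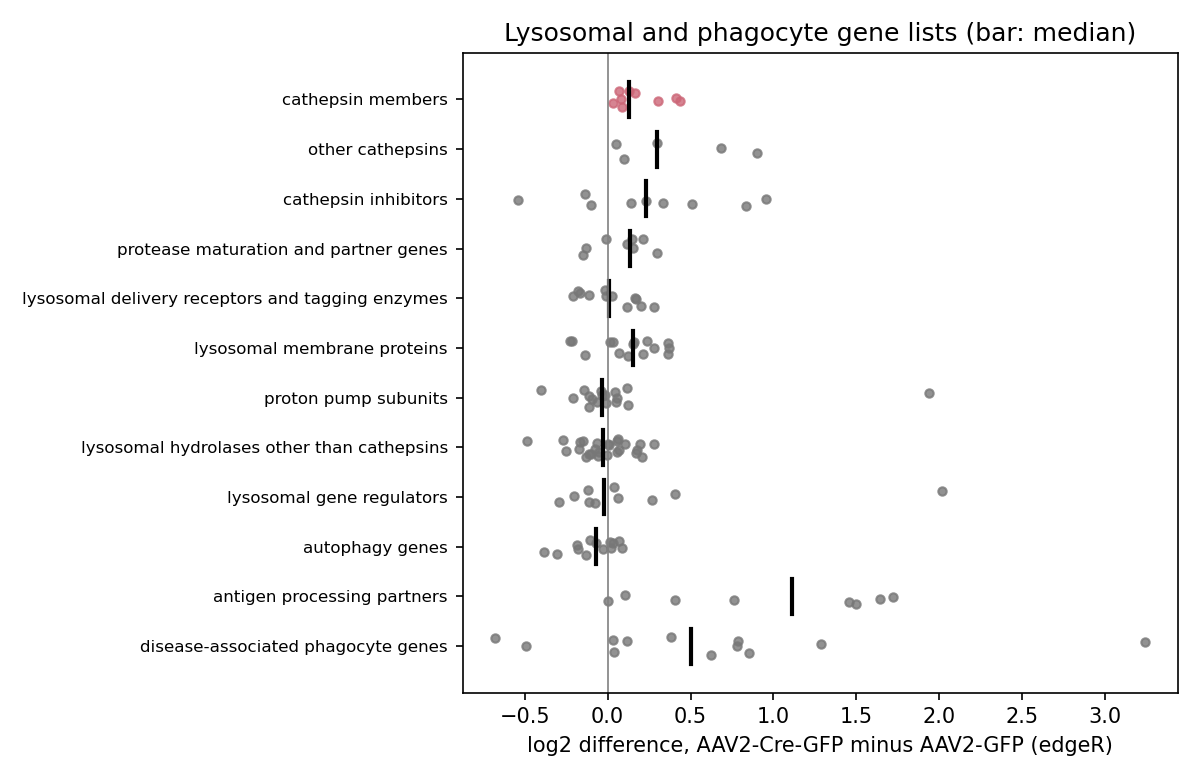
Log2 difference of each tested gene of the cathepsins and of 11 lysosomal and phagocyte lists (edgeR, Cre-labelled minus GFP-labelled); black bars are medians. The 9 cathepsins lie between 0.03 and 0.44, the proton pump, hydrolase, regulator and autophagy lists have medians just below 0, and the antigen processing list has a median of 1.11.

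The phagocyte lists had larger medians than the cathepsins, and some of their genes were high mainly in Cre-labelled libraries 2 and 3, which held kidney transcripts. All 8 partners of antigen processing were on the higher side (median 1.11), none called by edgeR and 3 by DESeq2. Of all genes with a DESeq2 adjusted p, 3.12% were called as higher. H2-Aa, an MHC class II chain, had 2.82, 2.47 and 1.60 CPM with GFP and 3.23, 9.33 and 8.91 CPM with Cre. Cre-labelled library 1 was thus close to the GFP-labelled range (edgeR adjusted p = 0.131, DESeq2 adjusted p = 0.00299). H2-Eb1, another chain, was at 2.51 CPM in Cre-labelled library 1, inside its own GFP-labelled range, and at 6.70 and 9.16 CPM in Cre-labelled libraries 2 and 3. Of 12 genes of disease-associated phagocytes 10 were higher (median 0.50), with 0 called by edgeR and 3 by DESeq2. Spp1, osteopontin, stood at 5.58, 6.31 and 6.15 CPM against 19.4, 70.2 and 80.7 CPM (edgeR adjusted p = 0.0705, DESeq2 adjusted p = 5.96e-06). Tyrobp, the adaptor of the receptor TREM2, stood at 5.11, 4.54 and 5.86 CPM against 9.19, 8.60 and 8.96 CPM. Its level was about the same in all 3 Cre-labelled libraries (log2 difference 0.79 ± 0.163 SE, edgeR adjusted p = 0.0938, DESeq2 adjusted p = 0.00395).

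Cell type markers were read beside the 3 cathepsins whose groups did not overlap. In bulk tissue more cells of a type and more RNA per cell cannot be told apart. Microglia markers, 16 in all and all detected, summed to 427 to 475 CPM in the GFP-labelled and 462 to 485 CPM in the Cre-labelled libraries, with 10 higher and 6 lower and a median log2 difference of 0.14. edgeR and DESeq2 called 0 of the 16. At an unadjusted p under 0.05 in edgeR 2 were higher and 0 lower, where 8.11% of all tested genes were higher and 9.11% lower. The groups did not overlap for 4 markers, all higher: Fcrls (log2 difference 0.41 ± 0.145 SE), C1qb (0.22 ± 0.097), Itgam (0.20 ± 0.077) and Sall1 (0.17 ± 0.078), with edgeR adjusted p from 0.214 to 0.326. Over all tested genes, 11.1% had groups without overlap that were higher with Cre and 11.7% that were lower. Csf1r, the receptor on which microglia depend for survival, and Cx3cr1, a chemokine receptor, differed by -0.023 ± 0.060 and -0.061 ± 0.073 (SE; edgeR adjusted p = 0.887 and 0.724), with overlapping groups. The other lower markers, also with overlapping groups, were Aif1 (-0.89 ± 0.574 SE), Tmem119 (-0.15 ± 0.131), P2ry13 (-0.14 ± 0.182) and C1qa (-0.12 ± 0.128). As a percentage of the summed microglial CPM, Ctss stood at 12.5, 12.4 and 12.2 in the GFP-labelled and at 17.1, 13.1 and 13.5 in the Cre-labelled libraries. For Ctsh the ranges were 2.66 to 2.92 and 3.30 to 3.75, and for Ctsz 5.07 to 6.82 and 6.58 to 8.84. On this scale the ranges of Ctsz overlapped and those of Ctss and Ctsh did not. These 3 genes were picked for their lack of overlap in CPM, and the microglial sum differed little between libraries. Lack of overlap on this scale therefore largely repeats that choice and is no separate result. The share of all tested genes without overlap on this scale was not computed.

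Markers of blood monocytes, neutrophils and lymphocytes, all 10 tested of 12 on the higher side, summed to 66.9 to 93.7 CPM in the GFP-labelled libraries. In Cre-labelled libraries 1 to 3 the sums were 67.8, 180 and 235 CPM, so the excess was in the libraries with kidney transcripts. For 1 of the 10, Cd8a, every Cre-labelled library was above the GFP-labelled ones, which held for 11.1% of all tested genes. Border macrophage markers summed to 11.0 to 12.4 and 10.9 to 15.0 CPM, with 5 of 7 higher. Neuron markers were lower in 12 of 12, at 6094 to 6244 CPM against 4893 to 5365 CPM, with groups that did not overlap for 8 of the 12. Over all tested genes, 11.7% were lower with Cre without overlap. PVH neuron markers were lower in 8 of 8, with sums of 294, 698 and 752 CPM in GFP-labelled libraries 1 to 3 and 219, 253 and 518 CPM in Cre-labelled libraries 1 to 3. These sums overlapped, GFP-labelled library 1 was far below its group, and only 2 of the 8 genes had groups without overlap. Astrocyte markers summed to 4930 to 5038 and 4789 to 5161 CPM, with 9 of 12 higher. Oligodendrocyte markers went evenly, with 5 of 10 higher and sums of 2440 to 3031 and 2427 to 2964 CPM, and endothelial and mural markers summed to 221 to 281 and 221 to 297 CPM, with 7 of 10 higher. The part of these cell types, and of the kidney transcripts, in the cathepsin differences was not tested. Leaving out Cre-labelled libraries 2 and 3, which hold the kidney transcripts, leaves only Cre-labelled library 1 against the GFP-labelled ones. The log2 differences were then 0.58 for Ctss, 0.37 for Ctsh and 0.27 for Ctsz. Of the Cre-labelled libraries, that one was the highest for Ctss and the lowest for Ctsh and Ctsz, so these values rest on 1 library.

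**Figure D5:**
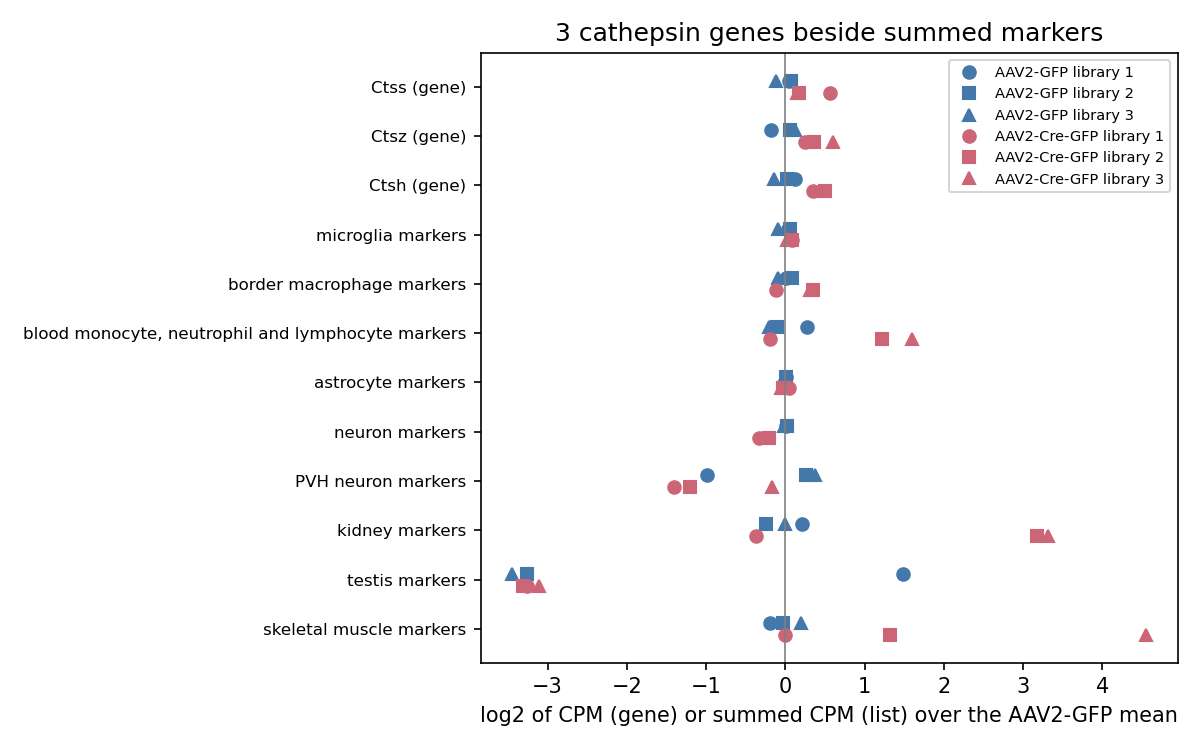
Ctss, Ctsz and Ctsh (CPM) and the summed CPM of marker lists in each library, as log2 over the mean of the GFP-labelled libraries. Kidney and blood cell markers are high in Cre-labelled libraries 2 and 3, testis markers in GFP-labelled library 1, and microglia markers stay near 0 in all 6.

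Of 7620 genes averaging 5 FPKM or more, those whose centred log2 CPM lay closest to the mean profile of the 9 cathepsins were Tmem222, Mat2a, Sdhc, Ncoa2 and Eif4a1, with root mean square differences of 0.0122 to 0.0249 over the 6 libraries. The nearest single gene was Bloc1s2 for Ctss (0.0461), H2az2 for Ctsh (0.0503) and Cd63 for Ctsz (0.0447).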

How the data were processed

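Poly(A) RNA of the PVH was sequenced as dUTP-marked read pairs, per the labels' protocols. The submitters' processing notes name cutadapt, HISAT2 and StringTie, with versions and roles not given in the sources used here, and genome build mm9. Of 35024 gene identifiers shared with GENCODE M21, 32009 (91.4%) have the same start and end there, 8 of the 9 members among them (not Ctsa), so positions are quoted on GRCm38. The deposited table holds whole-number counts per gene, with no normalization, and FPKM values that the authors scaled by gene length and library size.

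Counts were tested with edgeR 4.0.16 (R 4.3.3): TMM normalization, genes kept by filterByExpr (minimum count 10), a quasi-likelihood fit of 3 against 3 libraries without covariates, two-sided, with Benjamini-Hochberg adjustment over 20865 genes and a threshold of 0.05. Standard errors come from the F statistic. CPM is TMM-normalised, and logs of it add 0.5. DESeq2 1.42.0 and limma 3.58.1 on log2(FPKM + 0.5) were alternatives, with other factors, filters, pseudocounts of 0.1 and 1, a replicate block and left-out libraries. The functions were also run on simulated counts with planted fold changes larger than those of the cathepsins, and the outcome is not given here. Each member had 313 or more counts in each library. No 2 libraries agreed within sampling noise (chi-square per gene 11.4 or more). Named genes are all 9 members, the 2 genes of smallest p in each pathway list (1 such gene is not reported here), and the nearest profiles; marker genes and CT010467 were picked from their lists after values were seen. The members and lists were chosen with earlier results of these data known.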

Additional observations from a re-analysis of the deposited data

How the results depend on the processing

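The number of genes called depended on the fit. Against 2 in edgeR, it was 1322 in DESeq2, 22 in the robust fit, 9 with upper-quartile and 9 with relative log expression factors, 1 without a filter, and 15 and 1 in limma on FPKM with a pseudocount of 0.1 and without a filter. It ran from 1 to 296 with 1 library left out (296 without Cre-labelled library 1), and was 4 without Cre-labelled libraries 2 and 3 and 1059 without the 3 libraries with other-organ transcripts. Of the 9 cathepsins 0 were called in edgeR and with each library left out, 2 in DESeq2 and 1 without those 3 libraries. Their median of 0.13 ran from 0.12 to 0.22 with 1 library left out (0.22 without Cre-labelled library 3), was 0.040 without the 3 libraries, and in limma 0.17 with a pseudocount of 0.5, with or without the filter, and 0.175 with 0.1. Signs turned for Ctsa (-0.060 without Cre-labelled libraries 2 and 3, -0.14 without the 3), Ctsc (-0.12 without Cre-labelled library 2, -0.087 and -0.063), Ctsd (-0.0018) and Ctsf (-0.0015 without the 3); Ctsb, Ctsh, Ctso, Ctss and Ctsz kept theirs under all 18 alternatives. The causes were not tested. With the replicate block, edgeR called 3 genes and 0 cathepsins. Deviations from the group means had correlations of -0.038, 0.029 and -0.0039 between same-numbered libraries, and of -0.0767 to 0.0575 between differently numbered ones. Centring each group of 3 on its own mean limits such correlations, so they cannot settle whether same-numbered libraries were handled as pairs. Ctsc, with 313 to 533 counts per library, had the widest 95% interval of the 9, from -0.38 to 0.56.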
